A study of Mus musculus with 27 samples.

Results

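The genes whose symbols start with Lce (late cornified envelope) or Sprr (small proline-rich) were taken from every table of the study, by symbol alone. They numbered 38 of 51906 symbols in the RNA-seq table, made up of 14 Lce1, 6 Lce3, 1 Lce6, 2 Sprr1, 13 Sprr2, 1 Sprr3 and 1 Sprr4 gene, and 36 of 32285 genes in the single cell matrices, which do not list Sprr2c-ps and Sprr2g. All 38 lie on chromosome 3 of the mouse build GRCm38 (mm10), in one stretch from chr3:92215799-92221911 (Sprr2a1, as GENCODE annotates it) to chr3:93017810-93019060 (Lce1m), with 21 other annotated genes of the table between them. The study asked how all-trans retinoic acid (atRA) acts on lineage plasticity of hair follicle stem cells (HFSCs), a state in which stem cells of the follicle also express genes of the epidermis. For RNA-seq, HFSCs taken from back skin in telogen (postnatal day 55) were expanded on inactivated feeder cells and grown as 3D colonies. Wild-type cells and cells of Rxra cKO mice (Sox9-CreER; Rxra fl/fl; Rosa26-YFP, in which the Cre driver is active in Sox9-expressing cells) were each grown in medium with fetal bovine serum (FBS) or in atRA+PKCi medium, with 2 libraries per group from 2 mice per genotype. The atRA+PKCi medium was serum-free and held B-27 supplement, atRA and the protein kinase C inhibitor Go6976 among its additions, so the loss of serum, the supplement, atRA and the inhibitor changed together and cannot be told apart. Cells sequenced singly came from wild-type mice at postnatal day 32, either fresh from anagen back skin or as HFSC cultures, with 2 mice each.

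The cornified envelope is a shell of cross-linked protein that replaces the plasma membrane of keratinocytes as they die at the skin surface. Loricrin and involucrin form much of it, Sprr proteins bridge between other proteins, and Lce proteins are added late, all joined by transglutaminases and anchored at desmosomes through envoplakin and periplakin. Lce1 genes are known from intact epidermis, Lce3 and Sprr1 genes from wounded or inflamed skin, and Sprr2a genes also from epithelia of the gut. HFSCs at rest do not make an envelope.

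RefSeq promoters (GRCm38.p6, the 250 bases before the annotated gene start) matched 34 of the 38 genes. Those of the most abundant genes of the Sprr2, Sprr1 and Lce3 subfamilies are shown because their genes moved in different directions between media, with matches to the AP-1 motif TGANTCA, read on both strands, in capitals.
Sprr2a2 (chr3:92250397-92250646, forward strand): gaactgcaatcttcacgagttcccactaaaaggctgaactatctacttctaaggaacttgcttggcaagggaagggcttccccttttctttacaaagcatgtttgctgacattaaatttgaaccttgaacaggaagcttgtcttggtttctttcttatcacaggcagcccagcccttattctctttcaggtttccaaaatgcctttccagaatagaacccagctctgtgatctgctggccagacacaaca
Sprr2d (chr3:92338890-92339139, forward strand): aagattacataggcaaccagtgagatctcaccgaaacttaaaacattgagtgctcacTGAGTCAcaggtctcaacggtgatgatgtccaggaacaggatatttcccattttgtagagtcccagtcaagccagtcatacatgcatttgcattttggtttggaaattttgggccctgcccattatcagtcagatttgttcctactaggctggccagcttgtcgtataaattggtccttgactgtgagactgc
Sprr2h (chr3:92385435-92385684, forward strand): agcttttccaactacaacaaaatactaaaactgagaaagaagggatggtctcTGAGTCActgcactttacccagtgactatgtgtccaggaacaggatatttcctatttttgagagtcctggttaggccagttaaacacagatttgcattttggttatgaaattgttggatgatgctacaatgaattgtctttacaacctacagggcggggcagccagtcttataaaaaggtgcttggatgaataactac
Sprr1a (chr3:92485882-92486131, reverse strand): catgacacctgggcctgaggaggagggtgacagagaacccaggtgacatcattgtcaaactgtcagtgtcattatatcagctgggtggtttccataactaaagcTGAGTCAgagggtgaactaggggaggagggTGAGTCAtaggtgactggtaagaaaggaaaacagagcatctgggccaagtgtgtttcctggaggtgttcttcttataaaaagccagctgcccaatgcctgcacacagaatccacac
Lce3c (chr3:92944236-92944485, forward strand): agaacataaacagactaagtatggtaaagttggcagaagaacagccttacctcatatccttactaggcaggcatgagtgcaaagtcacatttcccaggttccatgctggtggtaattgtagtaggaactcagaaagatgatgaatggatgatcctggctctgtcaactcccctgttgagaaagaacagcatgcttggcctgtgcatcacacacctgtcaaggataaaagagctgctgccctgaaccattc
The AP-1 letters occurred in 9 of the 34 promoters (26.5%), against 6.75% of all 32851 promoters of the same length. They were present in 2 of 2 Sprr1 and 7 of 10 Sprr2 promoters, and in 0 of 13 Lce1 and 0 of 6 Lce3 promoters. The Sprr2 promoters without a match were those of Sprr2a1, Sprr2a2 and Sprr2a3, called the Sprr2a trio here. In the other 7 a match began 193 to 198 bases before the start and TATAAA began 29 bases before it, while the trio had neither. TATAAA occurred in 41.2% of the 34 promoters and 12.4% of all. The letters CACCC, the core of sites for KLF factors, occurred in 35.3% and 52.0%, and AACNNGTT, used for GRHL factors, in 0 of 34 and 3.64%. The retinoic acid response element, searched as 2 copies of AGGTCA with 5 bases of any kind between them, was in 0 of 34 and in 0.00913% of all promoters. At so low a rate no match is likely among 34, so this search cannot tell whether such elements are present. Among the 7 other Sprr2 promoters aligned pairs were 57.0 to 88.9% identical (median 64.3%), and within the trio 79.9 to 100%. The lower trio value comes from where the windows begin. That of Sprr2a3 starts further upstream, and its overlap with those of Sprr2a1 and Sprr2a2 has the same letters. A trio promoter against any other Sprr2 promoter gave 45.4 to 49.5%. That is no more than between subfamilies, where Sprr2a2 ran from 42.3% (against Lce3b) to 50% (against Lce1g). RefSeq and GENCODE place the starts of the trio at different bases, and the Sprr2a2 window lies within the span that GENCODE gives this gene. A match of letters is a description of the window and not a binding site.

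Library totals ran from 25150265 to 35879777 estimated counts. The libraries were all rich in the keratinocyte keratins Krt5 and Krt14, at 8958 to 12333 and 5718 to 22349.9 counts per 1e6 of normalized library size (CPM). Krt15, a keratin of the follicle bulge, stood in FBS at 3.65 and 4.75 CPM for wild-type and 6.51 and 8.23 for Rxra cKO, and in atRA+PKCi at 4576 and 4430.4 for wild-type and 251 and 245 for Rxra cKO, so that this marker of the labelled cell type was near 0 in FBS. Rxra itself was at 149 and 122 CPM in wild-type FBS and 97.2 and 95.7 in libraries labelled Rxra cKO in FBS (log2 fold change -0.49, SE 0.092, adjusted p = 0.00264). In atRA+PKCi it was at 147 and 143 in wild-type and 148 and 145 in libraries labelled Rxra cKO (log2 fold change 0.01, SE 0.091, adjusted p = 0.927), so in this medium the gene count did not show the deletion. A count per gene also takes in the exons outside the deleted part, and directions drawn from genotype below rest on the labels. Feeder or dermal cells were followed through 6 fibroblast markers, whose summed level was in FBS 11.6 and 7.65 CPM for wild-type and 6.11 and 8.32 for Rxra cKO, and in atRA+PKCi 1.32 and 4.37 for wild-type and 4.45 and 5.18 for Rxra cKO. This sum was higher in FBS than in atRA+PKCi in both genotypes, as most members were, and its part in the results was not tested. Lum was at 0 in all 8 libraries, Dcn also in 1 of them, and the most abundant marker, Pdgfra or Col1a1, did not pass 5.44 CPM.

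The first comparison asked what atRA+PKCi did to these genes in wild-type cells. Nearly all fell, most of them to a trace, and only the Sprr2a trio rose. Of the 38 members, 36 passed the filter on low counts (Lce6a and Sprr2c-ps did not), and 33 were lower and 3 higher at an adjusted p under 0.05 (edgeR quasi-likelihood test, Benjamini-Hochberg over 15965 genes). Among all genes tested, 26.6% were lower and 27.2% higher. The median log2 fold change of the 36 was -8.07, or -7.46 with genes at 0 counts set to their bounds, against 0.03 over all genes. Members together took 0.642 and 0.717% of all counts in wild-type FBS, against 0.172 and 0.140% with atRA+PKCi, of which the trio made up 0.125 and 0.105%. In bulk libraries fewer cells that express a gene and less RNA per cell cannot be told apart.

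Lce3, a subfamily linked to barrier repair, had the lowest median of the fitted values, an order that rests on few counts. Lce3a, Lce3b and Lce3e had 2, 3 and 2 counts over both wild-type atRA+PKCi libraries. Of the 14 Lce1 genes, 7 had 0 there, so that their falls are known only as bounds. Its 6 genes summed to 1367 and 1684 CPM in wild-type FBS, against 2.63 and 2.03 with atRA+PKCi, and all 6 were lower, with a median log2 fold change of -11.21. Lce3c (chr3:92944486-92945733) had 361 and 452 CPM in FBS and 1.86 and 1.49 in atRA+PKCi (log2 fold change -7.92, SE 0.23, adjusted p = 2.61e-08). It kept more of its level than any other Lce3 gene. Lce3f (chr3:92992226-92993426) had 344 and 418 CPM in FBS and 0.545 and 0.412 in atRA+PKCi (log2 fold change -9.63, SE 0.21, adjusted p = 1.1e-08). Lce3 transcripts share 26.7 to 60.3% of their 31-base words with other transcripts, mainly other Lce3 genes, so the division of reads within this subfamily is less certain than its sum.

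The 14 Lce1 genes, whose proteins belong to the intact cornified layer, were all lower in atRA+PKCi (median -8.85, or -8.71 with bounds). Their sum was 267 and 366 CPM in wild-type FBS, against 0.417 and 0.19 with atRA+PKCi. Lce1a2 (chr3:92668613-92670315) had 49.3 and 71.3 CPM in FBS and 0 counts in both atRA+PKCi libraries, at least 1254-fold lower taking 3 counts over both libraries as the floor (adjusted p = 9.85e-07). Lce1a1 (chr3:92646535-92648307) had 45.1 and 60.3 CPM in FBS and likewise 0 counts in both, at least 1097-fold lower (adjusted p = 7.66e-07). In all, 7 Lce1 genes had no count in either wild-type atRA+PKCi library. Lce1d fell from 2456 counts over both FBS libraries to 1, a ratio of 2892 (interval 519 to 114273, for counting error only). Lce6a, the single gene of its subfamily, was too low to test, at 0.219 and 0.232 CPM in wild-type FBS, against 0.0321 and 0.0317 with atRA+PKCi.

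**Figure D1:**
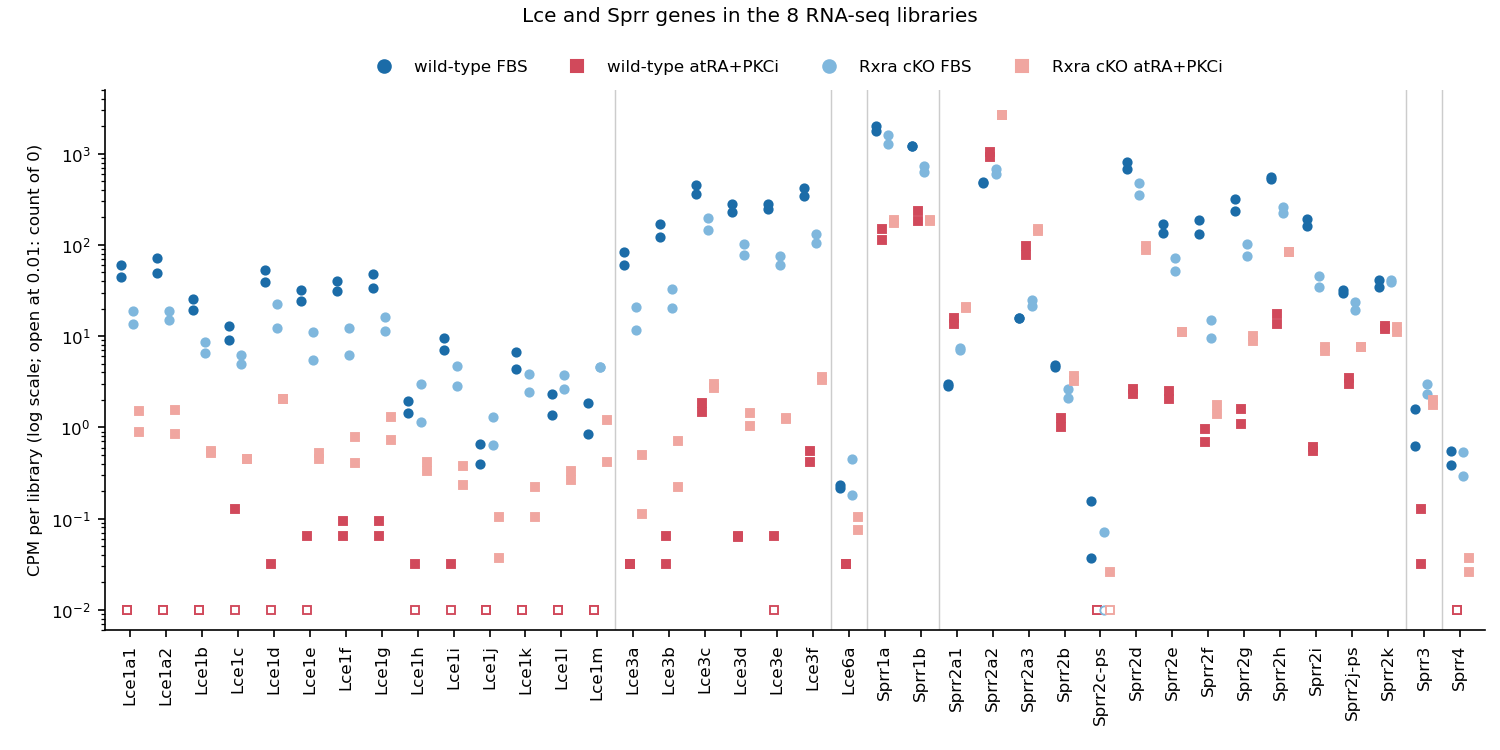
CPM of each Lce and Sprr gene in the 8 RNA-seq libraries on a log axis, one point per library, by subfamily, with counts of 0 drawn open at 0.01. Within each genotype squares (atRA+PKCi) lie below circles (FBS) for the Lce1, Lce3 and Sprr1 genes, and above them for Sprr2a1, Sprr2a2 and Sprr2a3.

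Sprr1 genes fell less and stayed well expressed. Both encode cross-bridging envelope precursors that rise after injury. Sprr1a (chr3:92483952-92485895) had 1761 and 2019 CPM in wild-type FBS, against 149 and 115 with atRA+PKCi (log2 fold change -3.84, SE 0.17, adjusted p = 2.57e-07). Sprr1b (chr3:92436809-92438789) had 1207 and 1228 CPM in FBS and 238 and 183 in atRA+PKCi (log2 fold change -2.53, SE 0.13, adjusted p = 6.98e-07). The libraries of the 2 media did not overlap for either gene. Per kilobase of exon, Sprr1a was the most abundant member in wild-type FBS, at a mean of 2345 CPM per kb, followed by Sprr1b at 1467, Sprr2d at 1093, Sprr2h at 718 and Lce3c at 717. Neither Sprr1 transcript shares a 31-base word with another transcript.

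Sprr2 was divided. Outside the trio its genes summed to 1934 and 2311 CPM in wild-type FBS and 42 and 37.7 in atRA+PKCi, and 9 of 9 tested were lower (median -6.07). Sprr2d (chr3:92339140-92340873) was the most abundant of these per kilobase and fell from 676 and 813 CPM to 2.34 and 2.63 (log2 fold change -8.22, SE 0.21, adjusted p = 1.81e-08). The trio summed to 503 and 510.4 CPM in FBS and 1158 and 1015 in atRA+PKCi, and 3 of 3 were higher. Sprr2a2 (chr3:92215920-92256724) made up most of it, with 484 and 492 CPM in FBS and 1045 and 924 in atRA+PKCi (log2 fold change 1.01, SE 0.095, adjusted p = 3.05e-05). The trio shares 97.8% (Sprr2a2), 96.9% (Sprr2a1) and 73.6% (Sprr2a3) of its 31-base words with other transcripts, almost all within the trio, and the annotated span of Sprr2a2 overlaps most of that of Sprr2a1, so the share of each gene is uncertain. Summed to 1 feature, a setting chosen after the data were seen, it rose by 1.10 on the log2 scale (SE 0.097, adjusted p = 2.01e-05). Its annotated exons are 2.88 to 3.00 kb long against 0.609 to 0.784 kb for the other tested Sprr2 genes. Per kilobase, Sprr2a2 went from 168 to 338 CPM per kb and was the most abundant member in wild-type atRA+PKCi, ahead of Sprr1b at 254 and Sprr1a at 163.

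The low single members followed the majority. Sprr3 (chr3:92456502-92458720), best known from the lining of the mouth and oesophagus, had 0.62 and 1.58 CPM in wild-type FBS, against 0.128 and 0.0317 with atRA+PKCi (log2 fold change -3.72, SE 0.66, adjusted p = 0.00134). Sprr4 had 0.547 and 0.386 CPM in FBS and 0 counts in both atRA+PKCi libraries, at least 9.81-fold lower (adjusted p = 0.00177).

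The same change of medium in cells labelled Rxra cKO again lowered most members and raised the trio, with a median nearer to 0. Here 31 of 36 members were lower and 3 higher (edgeR adjusted p under 0.05), beside 22.2% and 20.8% of all genes, and the 3 were again the trio. The median was -3.33, against 0.02 over all genes. By subfamily the medians were -5.75 for Lce3, -3.72 for Lce1, -2.43 for Sprr1, -2.16 for Sprr2 outside the trio and 2.05 for the trio. Sprr2b (log2 fold change 0.53, adjusted p = 0.0745) and Sprr3 (log2 fold change -0.52, adjusted p = 0.366) were not called.

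Lce3c stood at 145 and 196 CPM in Rxra cKO FBS and 2.7 and 2.98 in Rxra cKO atRA+PKCi (log2 fold change -5.92, SE 0.21, adjusted p = 3.2e-07). Lce3f stood at 106 and 131 in FBS and 3.54 and 3.28 in atRA+PKCi (log2 fold change -5.11, SE 0.16, adjusted p = 1.92e-07). Lce1a2 kept counts in both libraries, at 15.1 and 19.1 CPM in FBS and 0.838 and 1.56 in atRA+PKCi (log2 fold change -3.89, SE 0.30, adjusted p = 3.99e-05). Lce3 and Lce1 genes thus still fell in cells labelled Rxra cKO, to levels that could be counted. Sprr2d was at 349.7 and 477 CPM in FBS and 96.2 and 89 in atRA+PKCi (log2 fold change -2.16, SE 0.15, adjusted p = 9.43e-06). Sprr1a was at 1269 and 1620.1 in FBS and 189.7 and 176 in atRA+PKCi (log2 fold change -2.98, SE 0.16, adjusted p = 2.35e-06), and Sprr1b at 635 and 739 in FBS and 189 and 185 in atRA+PKCi (log2 fold change -1.88, SE 0.13, adjusted p = 7.95e-06). The libraries of the 2 media were apart for each of these genes. Sprr2a2 rose from 595 and 687 to 2642 and 2655 CPM (log2 fold change 2.05, SE 0.098, adjusted p = 1.2e-06) and, at 910.1 CPM per kb, was the most abundant member of this group too. Sprr3 was at 2.34 and 2.98 CPM in FBS and 1.75 and 1.97 in atRA+PKCi. Lce6a was at 0.18 and 0.453 in FBS and 0.105 and 0.0745 in atRA+PKCi. The fall of Sprr4, from 24 to 2 counts over both libraries, gave a ratio of 13.3 (counting interval 3.30 to 116) and lost its call without Rxra cKO FBS replicate 1 or either Rxra cKO atRA+PKCi library, and by DESeq2.

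**Figure D2:**
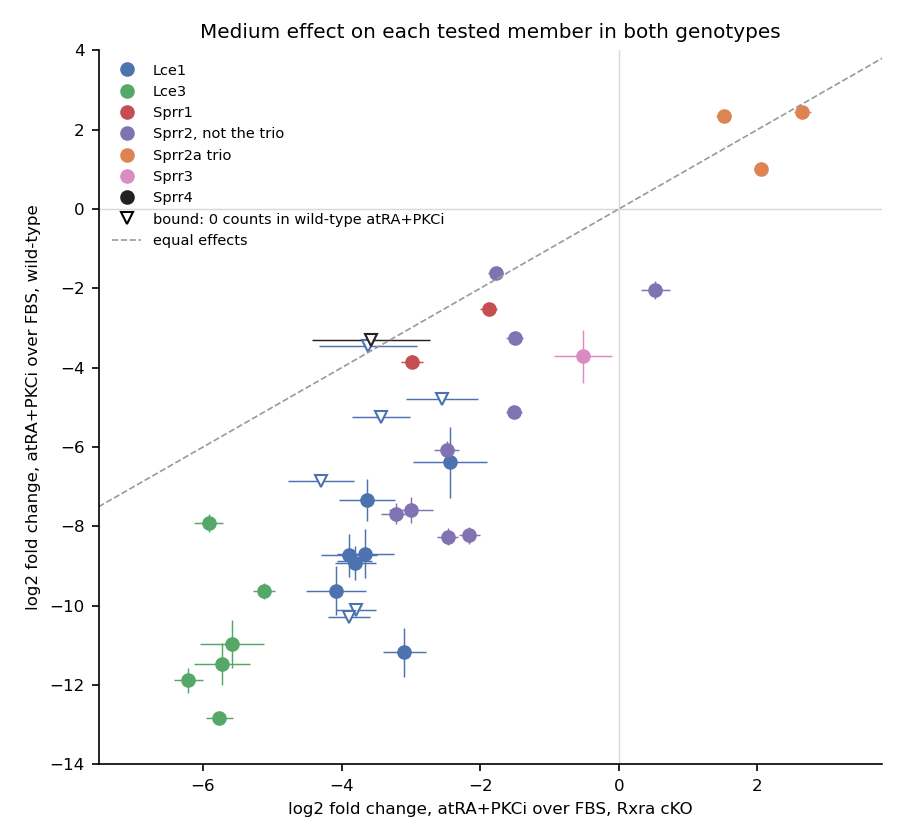
Log2 fold change of each tested member between atRA+PKCi and FBS in wild-type cells (vertical) against that in cells labelled Rxra cKO (horizontal), with standard errors as bars, bounds for genes at 0 counts as open triangles and a dashed line of equal effects. The trio is in the upper right, and most other members lie below the line, with Lce3e lowest.

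Whether the medium effect differed between genotypes was tested by the interaction, the wild-type effect minus that in cells labelled Rxra cKO. It was negative for 31 of 36 members and positive for 1 (edgeR adjusted p under 0.05), beside 13.3% and 11.3% of all genes, with a median of -4.55, or -3.83 with bounds, against 0.01 over all genes. Of the 14 Lce1 genes, 7 had 0 counts in wild-type atRA+PKCi, and their fitted interactions depend on the prior count. The medians were -5.53 for Lce3, -5.44 for Lce1 (-4.94 with these genes at their bounds), -3.60 for Sprr2 outside the trio and -0.76 for Sprr1. Lce3a, Lce3b and Lce3e had 2, 3 and 2 counts in wild-type atRA+PKCi, so the order of Lce3 and Lce1 is not secure. Sprr2d had an interaction of -6.07 (SE 0.25, adjusted p = 2.7e-06), the most negative among members with more than 3 counts in each group. Lce3f had -4.51 (SE 0.30, adjusted p = 2.42e-05) and Lce3c -2.00 (SE 0.33, adjusted p = 0.00271). Sprr1a (-0.86, SE 0.21, adjusted p = 0.019) and Sprr1b (-0.65, SE 0.17, adjusted p = 0.0268) were nearest to 0 among the called falls. Both lost their call without wild-type atRA+PKCi replicate 2, Rxra cKO FBS replicate 1 or either Rxra cKO atRA+PKCi library, with values of -0.69, -0.74, -0.85 and -0.92 for Sprr1a and -0.48, -0.59, -0.68 and -0.67 for Sprr1b. The trio split, with -1.03 for Sprr2a2 (adjusted p = 0.000791), 0.83 for Sprr2a1 (adjusted p = 0.00728) and -0.19 for Sprr2a3 (adjusted p = 0.432). Summed to 1 feature it gave -0.97 (adjusted p = 0.00122), a larger rise in cells labelled Rxra cKO. Besides Sprr2a3, Sprr2k (0.17, adjusted p = 0.485), Lce1j and Sprr4 were not called. Sprr2k fell by 1.61 and 1.78 on the log2 scale in the 2 genotypes.

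In FBS, members were mostly lower in libraries labelled Rxra cKO than in wild-type. Of 36, 24 were lower and 5 higher (edgeR adjusted p under 0.05), beside 20.5% and 22.3% of all genes, and the median was -1.15 against 0.02 over all genes. All 6 Lce3 genes were lower (median -1.82), with Lce3c at -1.25 (SE 0.15, adjusted p = 0.000241) and Lce3f at -1.68 (SE 0.12, adjusted p = 1.4e-05). Sprr2f changed most, from 130.2 and 189 CPM in wild-type to 9.49 and 15.2 in Rxra cKO (log2 fold change -3.69, SE 0.24, adjusted p = 8.09e-06). The 5 higher genes were Sprr2a1, Sprr2a2, Sprr2a3, Sprr3 and Lce1m. Of these genes Sprr2f, Sprr2a1, Sprr2a3 and Lce1m are outside the naming rule and were chosen after their values were seen. Sprr1b was lower (log2 fold change -0.83, SE 0.12, adjusted p = 0.000838), while Sprr1a was not called (log2 fold change -0.39, SE 0.15, adjusted p = 0.0659). Sprr1a was called without either wild-type atRA+PKCi library (-0.40 and -0.39) or without Rxra cKO FBS replicate 2 (-0.57). It was also called by DESeq2 (-0.39) and with no filter on low counts (-0.40). Of the 5, Sprr2a2 was at 0.39 (SE 0.094, adjusted p = 0.00945) and Sprr3 at 1.27 (SE 0.45, adjusted p = 0.0467). The count of 5 was 3 without wild-type FBS replicate 1 or Rxra cKO FBS replicate 1, and 1 without Rxra cKO FBS replicate 2, where Sprr2a2 (0.29) and Sprr3 (1.09) were not called. Sprr3 also lost its call without wild-type FBS replicate 1 (0.75), Rxra cKO FBS replicate 1 (1.42) or either Rxra cKO atRA+PKCi library (1.26 and 1.27), by DESeq2 (1.27) and by limma at either pseudocount (1.37 and 1.39).

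In atRA+PKCi the direction was the other way. Of 36 members, 28 were higher and 0 lower in libraries labelled Rxra cKO (edgeR adjusted p under 0.05), beside 23.0% higher and 20.2% lower of all genes, with a median of 3.26, or 2.87 with bounds, against 0.00 over all genes. By subfamily 13 of 14 Lce1, 3 of 6 Lce3, 1 of 2 Sprr1 and 10 of 12 tested Sprr2 genes were higher. Sprr2d, at 2.34 and 2.63 CPM in wild-type and 96.2 and 89 in Rxra cKO, rose by 5.22 on the log2 scale (SE 0.20, adjusted p = 3.79e-07). Lce1a2 had 74 counts over both libraries labelled Rxra cKO and 0 in wild-type, at least 23.8-fold higher (adjusted p = 0.00166), and Lce1a1 was at least 24.1-fold higher (adjusted p = 0.000969). These Lce1 levels were still small beside FBS. Lce3f was higher (log2 fold change 2.83, SE 0.29, adjusted p = 8.46e-05) and Lce3c was not called (log2 fold change 0.75, SE 0.29, adjusted p = 0.0675). Without Rxra cKO FBS replicate 1 or replicate 2, Lce3c was called at 0.78 and 0.75. It was also called by DESeq2 (0.78), with no filter on low counts (0.75) and by limma at either pseudocount (0.80). With the replicate number as a block Lce3c was called at 0.77, as were Lce3a and Lce3b, giving 6 of 6 Lce3 genes, and Sprr2f. Sprr1a was higher (log2 fold change 0.47, SE 0.15, adjusted p = 0.0332), a call that was lost without wild-type atRA+PKCi replicate 2 (0.30) or either Rxra cKO atRA+PKCi library (0.45 and 0.53). Sprr1b was at -0.17 (SE 0.12, adjusted p = 0.298), and it was the 1 member called lower without wild-type atRA+PKCi replicate 2 (-0.35). Sprr2a2 (log2 fold change 1.43, SE 0.096, adjusted p = 7.33e-06) and Sprr3 (log2 fold change 4.47, SE 0.63, adjusted p = 0.000511) were higher. At an unadjusted p under 0.05 no member was lower, and DESeq2 also called 0 lower. The comparisons in this account share libraries in part: each group of 2 enters 2 of the 4 comparisons of medium and genotype.

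Along the chromosome the trio lies together at one end of the locus, then the other Sprr2, the Sprr1, Sprr3 and Sprr4 genes, and then the Lce genes. Of the 21 other genes between the members 12 were tested, and with atRA+PKCi in wild-type 2 were higher and 6 lower, beside 27.2% and 26.6% of all genes. The 2, Gm37087 (from 0.474 and 0 CPM to 10.5 and 12.6) and Gm37752 (from 3.14 and 2.97 to 10.5 and 14.4), lie on the opposite strand, Gm37087 within the annotated span of Sprr2a2 and Gm37752 between Sprr2a2 and Sprr2a3. Whether counting used strand is not given in the sources used here, and without it reads of opposite strands cannot be told apart. Crct1, which stands among the Lce genes and encodes a small cysteine-rich protein, went from 292 and 398 to 0.225 and 0.222 CPM (log2 fold change -10.57, SE 0.33, adjusted p = 3.72e-08). It and 2310046K23Rik (log2 fold change -10.74, adjusted p = 1.38e-08) were lower, while Gm4202, also within the locus, was not called, and Ivl is taken up with the envelope partners described next. Kprp too belongs to those partners. These neighbours were named after their values were seen.

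**Figure D3:**
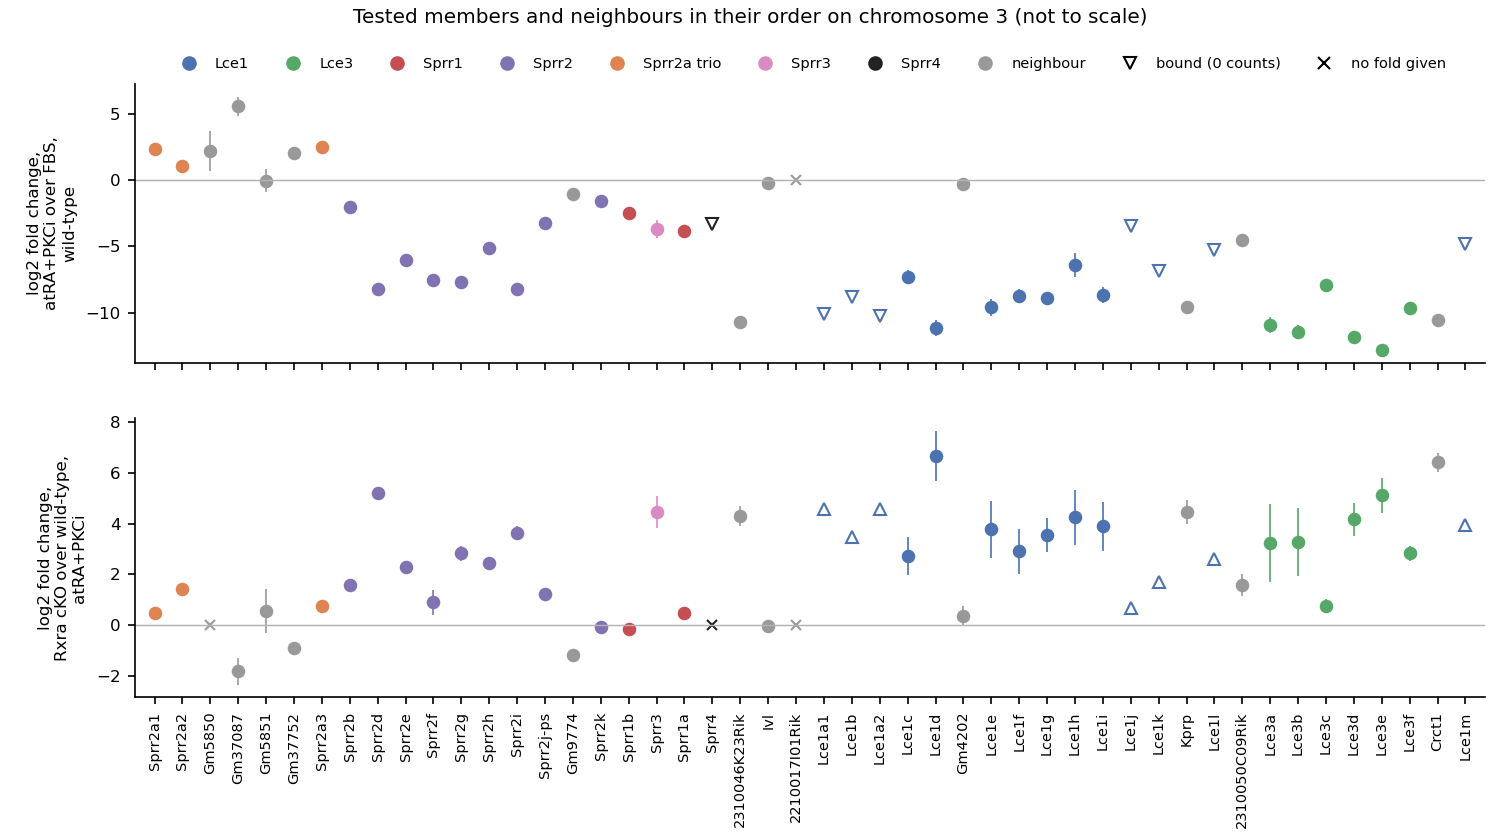
Log2 fold change of the tested members and their neighbours in chromosomal order, from Sprr2a1 to Lce1m, for atRA+PKCi over FBS in wild-type (top) and Rxra cKO over wild-type in atRA+PKCi (bottom). Bars are standard errors, open triangles are bounds and crosses mark genes for which no fold is given because a group had 0 counts. In the upper panel values above 0 are confined to the stretch from Sprr2a1 to Sprr2a3.

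Genes that build the envelope with these proteins, and others of keratinocyte differentiation, were lower in wild-type atRA+PKCi as well. Of a list of 28 partners (precursors, transglutaminases, desmosomal anchors and suprabasal keratins, a list chosen with earlier results of these data known), 27 were tested. In wild-type 26 were lower and 0 higher with atRA+PKCi, beside 26.6% and 27.2% of all genes, with a median log2 fold change of -5.39 against 0.03. The smallest falls were in the desmosome and anchor genes Pkp1 (log2 fold change -1.61, adjusted p = 1.01e-06), Ppl, which encodes periplakin (log2 fold change -1.74, adjusted p = 2.79e-06), and Dsp, which encodes desmoplakin (log2 fold change -1.89, adjusted p = 2.1e-06). The largest were in Cnfn, which encodes cornifelin (log2 fold change -11.05, adjusted p = 5.42e-08), Krtdap (log2 fold change -9.90, adjusted p = 2.33e-08) and Kprp (log2 fold change -9.61, adjusted p = 5.59e-08). Lor (loricrin) went from 67.2 and 51.1 to 0.706 and 0.792 CPM (log2 fold change -6.30, SE 0.20, adjusted p = 4.32e-08). Ivl (involucrin) was the partner not called, at 226 and 277 CPM in FBS and 204 and 215 in atRA+PKCi (log2 fold change -0.26, SE 0.12, adjusted p = 0.0866). It was called lower with the replicate number as a block (-0.26), by DESeq2 (-0.29), with no filter on low counts (-0.29) and without wild-type FBS replicate 1 (-0.41). In cells labelled Rxra cKO 20 partners were lower and 4 higher, beside 22.2% and 20.8%. The 4 were Krt1, Krt10, Tchh and Crnn, named after their values were seen, and Krt1 went from 3.02 and 2.88 to 43.4 and 33.5 CPM there. Lor fell by 2.48 on the log2 scale and Ivl was lower (log2 fold change -1.19, SE 0.12, adjusted p = 7.45e-05). The interaction was negative for 26 partners and positive for 1, Ivl (0.92, adjusted p = 0.00428), beside 13.3% and 11.3% of all genes. Between genotypes 23 partners were lower and 1 higher in FBS, beside 20.5% and 22.3%, and 24 were higher and 0 lower in atRA+PKCi, beside 23.0% and 20.2%.

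Transcription factors known to act on envelope genes, listed with the receptor Notch1, did not move as one. Of a list of 30, 6 were higher and 17 lower with atRA+PKCi in wild-type (median -0.56 against 0.03 over all genes), beside 27.2% and 26.6% of all genes. In cells labelled Rxra cKO 10 were higher and 12 lower, beside 20.8% and 22.2%. The 2 regulators named here for large falls were Prdm1, which encodes the repressor BLIMP1 (from 61.6 and 61 to 1.7 and 1.68 CPM, log2 fold change -5.18, adjusted p = 1.69e-07), and Grhl1 (log2 fold change -2.95, adjusted p = 1.85e-07), both genes of late keratinocyte differentiation. Klf4, needed for the skin barrier, fell from 284 and 250.1 to 93.3 and 87.5 CPM (log2 fold change -1.56, SE 0.088, adjusted p = 1.19e-06). Fosl1, an AP-1 subunit, fell from 97.5 and 84.3 to 17.7 and 16.7 CPM (log2 fold change -2.40, SE 0.091, adjusted p = 1.1e-07) and by 2.25 on the log2 scale in cells labelled Rxra cKO, with no call for the interaction (-0.16, adjusted p = 0.422). Another AP-1 subunit went up: Fosb rose from 66.2 and 46.1 to 436 and 443 CPM (log2 fold change 2.97, SE 0.17, adjusted p = 1.12e-06). Notch1 (log2 fold change 1.76, adjusted p = 7.12e-05), Ehf (log2 fold change 1.29, adjusted p = 6.65e-06) and Nfe2l2, which encodes the stress factor NRF2 (log2 fold change 0.25, adjusted p = 0.0246), were also higher. The Nfe2l2 call was lost without wild-type FBS replicate 2 (0.23), wild-type atRA+PKCi replicate 1 (0.16) or either Rxra cKO atRA+PKCi library (0.24 and 0.25). In FBS 19 regulators were lower and 2 higher in libraries labelled Rxra cKO, beside 20.5% and 22.3% of all genes, and in atRA+PKCi 12 were lower and 10 higher, beside 20.2% and 23.0%.

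Cultured HFSCs sequenced singly gave a second view, with media marked by hashtags and pooled per mouse into 1 run. The media were named FBS, B-27 (serum-free supplement), atRA+PKCi, Rspo, BMP2/4 (labelled BMP), Rspo+BMP2/4 and Rspo+BMP2/4+RARi, and the study describes the cultures with Rspo, BMP or RARi as also treated with atRA and the inhibitor. The difference between BMP2/4 and B-27 thus takes in atRA, the inhibitor and the BMPs, which cannot be told apart. After filters 222 cells of mouse 1 and 78 of mouse 2 carried a single tag, none of them from FBS. No cell barcode was shared by the 2 matrices. The B-27 cultures had 5 and 10 cells and the atRA+PKCi cultures 2 and 1, so the latter were not tested.

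Lce3 stood at 11998 and 3756 CPM (UMIs per 1e6 UMIs of the sum) in the B-27 cells of the 2 mice, and 182 to 274 in every other medium and mouse. Sprr1 stood at 3392 and 2272 in B-27 and 369.8 and 296 in BMP2/4, and Sprr2 at 587 and 1716 in B-27 and 189.9 and 155 in BMP2/4. The B-27 sums were thus higher for these 3 subfamilies in both mice, in mouse 1 largely through 1 cell. Where hashtags were called by their share of counts, Sprr2 in mouse 1 was instead higher in Rspo (1076) than in B-27 (554). Of 5 markers of keratinocyte differentiation, 3 also stood higher in the B-27 sums of both mice, with no test of them. Krt1, Krt10, Lor, Ivl and Flg together stood at 3070 and 1734 CPM in B-27 and 76.8 and 108 in BMP2/4. Flg (filaggrin), the most abundant of the 5 in B-27, stood at 2281 and 1602 against 7.58 and 9.79, Krt10 at 449.8 and 95.6 against 29.2 and 45.0, and Lor at 318 and 13.7 (3 UMIs) against 3.25 and 1.96. Ivl was at 21.2 and 22.8 against 35.98 and 50.9, and Krt1 had 0 UMIs in B-27. The part of cell state in the members' levels was not tested. Lce1 was higher in mouse 1 alone, with 2773 and 18.2 in B-27 and 30.8 and 41.1 in BMP2/4. In sums per mouse and medium, 15 members passed the filter, and 13 were lower and 0 higher in BMP2/4 than in B-27 (edgeR adjusted p under 0.05), beside 8.83% and 1.53% of 6265 genes tested. They included all 6 Lce3 genes (Lce3c with log2 fold change -4.80, SE 0.62, adjusted p = 3.06e-05), Sprr1a (log2 fold change -3.99, SE 0.59, adjusted p = 0.000128), Sprr1b (log2 fold change -2.35, SE 0.61, adjusted p = 0.0149) and Sprr2d (log2 fold change -3.72, SE 0.67, adjusted p = 0.0009). Sprr2a3, the trio gene whose reads these matrices can count in part, was at 1.47 (adjusted p = 0.288), and Lce1g was not called either. The comparisons of Rspo+BMP2/4 with BMP2/4 and of Rspo+BMP2/4+RARi with Rspo+BMP2/4 gave 0 members and 0 genes by the same test, or 0.00% of all genes. At an unadjusted p under 0.05 they gave 0 members, beside 44 genes (0.702%) and 233 genes (3.72%). The count of genes was not stable for the second of these, with 211 genes higher and 518 lower of 5668 without the Rspo+BMP2/4+RARi sum of mouse 2, which left that arm 1 sum of 5 cells assumed to vary like the others. No member was called there, and 1 had an unadjusted p under 0.05. With hashtags called by share of counts 9 genes were higher and 3 lower of 6419, again with 0 members. That comparison sets side by side cells with and without an inhibitor of the retinoic acid receptor, with 5 and 21 inhibited cells. Lce3 stood there at 218 and 237 against 203 and 259 CPM.

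The B-27 signal was uneven over cells. In mouse 1, 1 of 5 cells held 98.6% of the Lce3 UMIs, 99.6% of Lce1, 86.6% of Sprr1 and 68.5% of Sprr2. The other 4 cells together had Lce3 at 192 CPM, a level like that of the other media. Their Sprr1 was at 534 CPM, against 369.8 in BMP2/4 and 839 in Rspo of that mouse. Their Sprr2 was at 217 CPM, against 189.9 and 233. In mouse 2, all 10 cells had Lce3 UMIs, 43.3% of them in 1 cell, and the others had 2287 CPM. Without the B-27 sum of mouse 1, 12 of 18 members tested were lower, beside 3.66% of all genes, and without that of mouse 2, 16 of 22, beside 4.21%. In each of these fits the B-27 arm was a single sum assumed to vary like the other media. Without mouse 2 it was the sum in which 1 cell held most Lce3, Lce1, Sprr1 and Sprr2 UMIs. Lce3 UMIs were found at a like rate in all media but B-27, and the cultures of a mouse shared 1 run, in which free RNA of a few cells can reach the others. The part of free RNA in these levels was not tested.

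**Figure D4:**
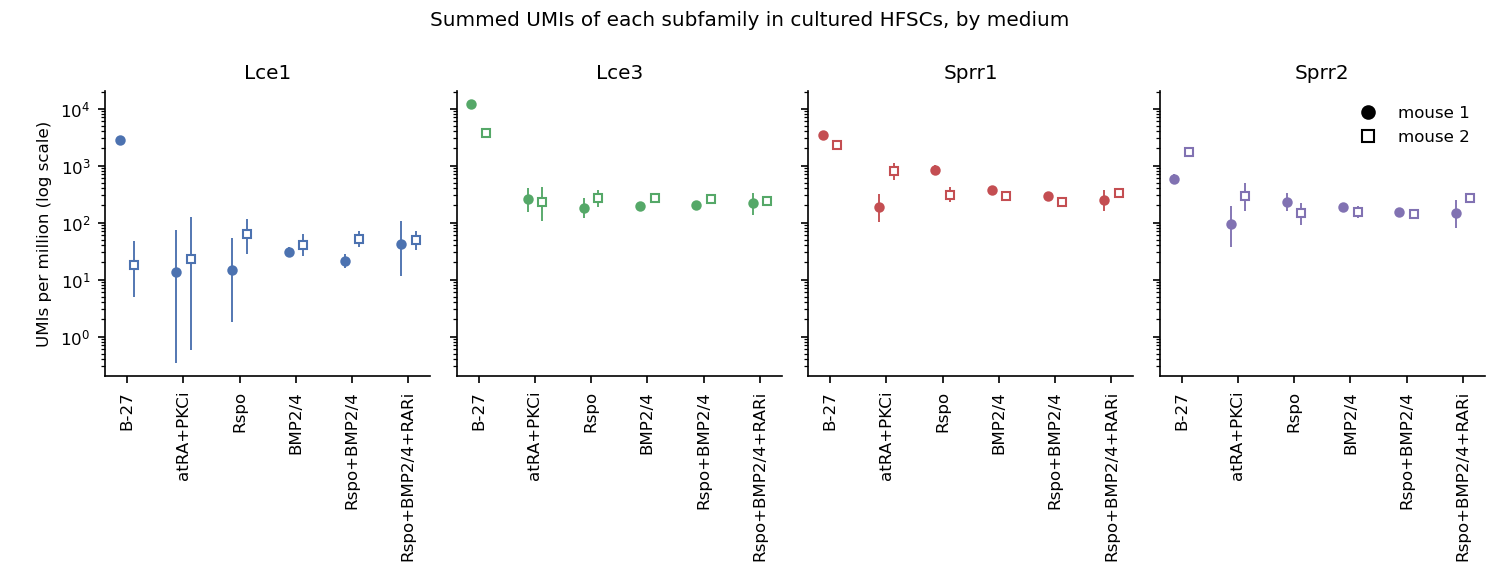
CPM (UMIs) of the Lce1, Lce3, Sprr1 and Sprr2 subfamilies in summed cultured HFSCs by medium and mouse on a log axis, with exact Poisson 95% intervals that cover counting error only. With hashtags called by HTODemux, Lce3, Sprr1 and Sprr2 are highest in B-27 in both mice, and Lce1 in the B-27 cells of mouse 1 alone.

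In anagen back skin, from which cells were sorted without the surface markers CD45, CD31, CD140a and CD117, the members were almost silent except for Sprr1a. The filters kept 13625 and 13608 cells in 37 clusters, and 62 barcodes were common to both libraries. CD140a marks fibroblasts, yet fibroblast-like clusters held 5550 and 5045 of the kept cells. Members had 2155 and 1654 UMIs in the mice, of which Sprr1a gave 95.2%, Sprr2a3 3.10% and Sprr1b 0.683%. All Lce1 genes together had 8 UMIs and all Lce3 genes 1, of 126593031 and 153281366 UMIs in the kept cells, and 22 of 36 members had none. Clusters were formed without the member genes and compared by description only.

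Sprr1a was most frequent in a suprabasal epidermis-like cluster of 605 cells, led by Cst6, Krt79, Defb6, Krt77, Krt1, Calm4, Krtdap and Krt10. The first 3 of these are markers of the upper follicle and 4 of the others of suprabasal epidermis. There Sprr1a was at 562 CPM in mouse 1 (exact Poisson 95% interval 532 to 592) and 269 CPM in mouse 2 (252 to 286). A UMI was found in 32.7% and 27.2% of its cells at medians of 7489 and 10607 UMIs per cell. In fibroblast-like cells, which should lack the gene, the shares were 1.19% in both mice at medians of 8811.5 and 12059 UMIs. Up to 75 and 103 Sprr1a UMIs were counted in 1 cell of the cluster. The cluster held 64.6 and 57.7% of all member UMIs. Calm4, at 1211 and 957 CPM, and Krtdap, at 1369 and 1416, were among the suprabasal markers by which the cluster was named. Genes of the granular layer, where Lce genes are made, stood lower in it. Lor was at 4.08 and 5.45, Flg at 0.408 and 0.860, Flg2 at 5.71 and 10.3, Hrnr at 4.89 and 2.87 and Cnfn at 3.67 and 0.287. Ivl, at 46.9 and 32.4, and Asprv1, at 29.4 and 23.8, were the highest of these 7, against 0.330 and 0.374 (Ivl) and 0.816 and 0.623 (Asprv1) in fibroblast-like cells. An unnamed cluster of 872 cells led by Csta1, Tchh and Foxq1 also had Ivl, at 47.9 and 53.8 CPM and Lor at 18.0 and 23.1, with Sprr1a at 1.28 and 0.878.

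A cluster of 163 cells, left unnamed and led by Areg, Wfdc2, Krt18, Krt8, Aqp5 and Krt7, genes of simple and glandular epithelia, also had Sprr1a, at 276 CPM in mouse 1 (exact Poisson 95% interval 247 to 307) and 294 CPM in mouse 2 (260.4 to 331). A UMI was found in 10.7% and 15.7% of its cells, and 1 cell in each mouse gave 137 of 334 and 101 of 272 Sprr1a UMIs. It also held 94.6 and 84.0% of all Sprr2a3 UMIs, at 28.9 CPM in mouse 1 (exact Poisson 95% interval 20.2 to 40.2) and 73.6 CPM in mouse 2 (57.1 to 93.3). These too came from few cells, 4 of 112 in mouse 1 and 8 of 51 in mouse 2. Up to 22 and 29 Sprr2a3 UMIs were in 1 cell. In the suprabasal epidermis-like cluster Sprr2a3 had 1 and 2 UMIs in the 2 mice. In both mice the sums of the 2 genes thus stood together in 1 cluster and not in the other. Whether the same cells held both was not tested. Basal epidermis-like cells had Sprr1a at 49.6 and 41 CPM, and fibroblast-like cells at 1.38 and 1.29. Sprr1 in the basal class, 45.3 CPM as a mean of the mice, was 11.7 under a stricter cell filter. These matrices count a read only where it fits a single gene. Of the 90-base windows in the last 400 bases, 100% are shared for Sprr2a1 and Sprr2a2 and 62.7% for Sprr2a3. Reads of the first 2 genes are thus largely out of sight here, and those of Sprr2a3 in part.

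**Figure D5:**
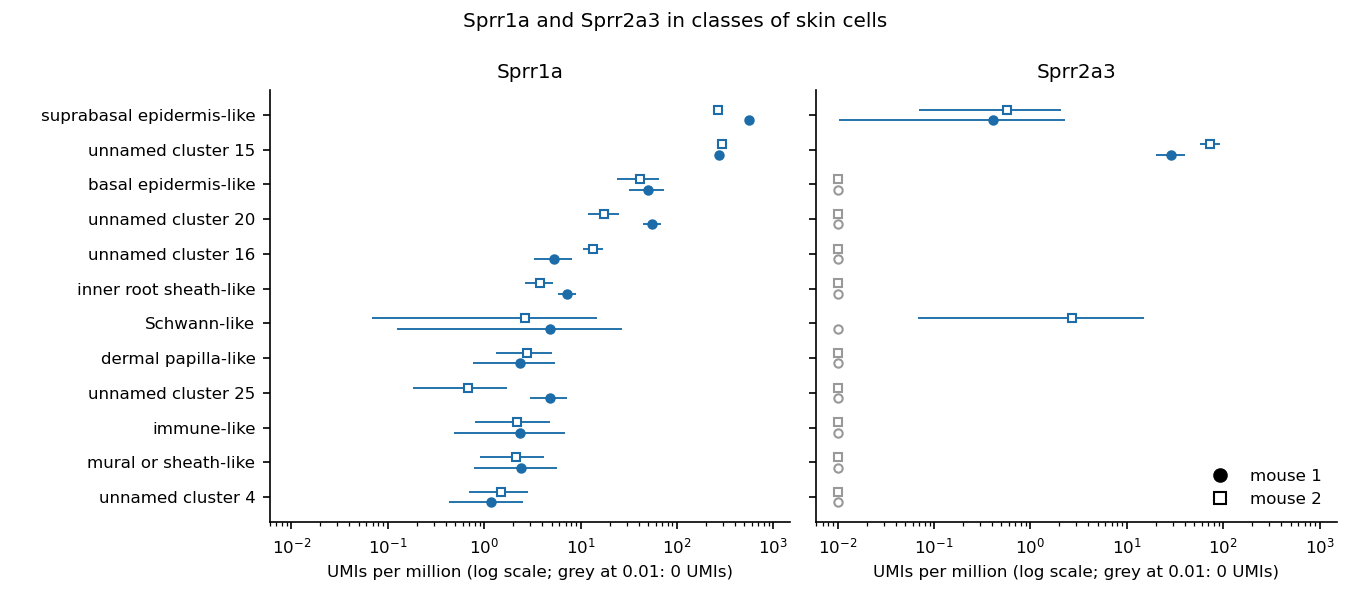
Sprr1a (left) and Sprr2a3 (right) in CPM of summed skin cells, for the 12 classes with the highest Sprr1a, per mouse on a log axis, with exact Poisson 95% intervals for counting error and grey open symbols at 0.01 for 0 UMIs. Sprr1a is highest in the suprabasal epidermis-like class and unnamed cluster 15, and Sprr2a3 in unnamed cluster 15.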

How the data were processed

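The authors quantified RNA-seq reads with Salmon 1.4.0 on mm10 and summed them per gene with Tximport. The deposited table holds the estimated counts that the authors made in this way, which were rounded. A second deposited table holds the same counts divided by size factors, a normalized signal. Counts were filtered (filterByExpr), scaled by TMM and fitted with edgeR 4.0.16 (quasi-likelihood) over all 8 libraries as 4 group means, and genes with a Benjamini-Hochberg adjusted p under 0.05 over 15965 genes were called. Each group has 2 libraries, so the spread is that between 2 samples. The RNA-seq titles carry a replicate number and name no mouse. Between the media of a genotype, deviations of same-numbered libraries correlated at r = 0.0668 (wild-type) and -0.0188 (Rxra cKO) across genes. A block on this number moved no count of calls over all members by over 1.5 times. It raised the Lce3 genes called higher in Rxra cKO in atRA+PKCi from 3 of 6 to 6 of 6.

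Single cell files hold UMI counts that the authors made with Cell Ranger on mm10, with neither free RNA nor doublets removed. Cells with at least 500 genes, 1000 UMIs and at most 10% mitochondrial UMIs were kept, doublets were removed (5.76 and 2.21% of skin cells), and skin cells were clustered with scanpy 1.11.5 without the member genes. Hashtags were called with HTODemux (Seurat 5.3.0), and cultured cells were summed per mouse and medium, with at least 5 cells a sum, for the edgeR test. Clusters were rebuilt here, so their names need not match those of the study. Intervals and floors (3 counts) cover counting error only.

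Members and lists were chosen with earlier results of these data known. The rule named the 2 members of highest mean CPM in Lce1, Lce3, Sprr1 and Sprr2, the highest of each other subfamily, and the listed genes with the largest and smallest changes in wild-type. Any other gene named was chosen after its values were seen. A gene that the rule names is not reported here. Alternatives were DESeq2 1.42.0, RLE scaling, no filter, stricter calls, a replicate block, each library left out, limma 3.58.1 on the normalized signal, and other cell filters, doublet, hashtag and clustering settings. Chromatin data of the study were not analysed here.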

Additional observations from a re-analysis of the deposited data

Results flagged for a closer look

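The results here were singled out because the effect of the medium differed between wild-type cells and cells labelled Rxra cKO by the interaction term of the edgeR fit (adjusted p under 0.05). That was so for 31 members with a more negative effect in wild-type. Among the named genes the difference on the log2 scale was -9.93 for Lce1a2 and -9.83 for Lce1a1, fitted values that depend on the prior count because wild-type atRA+PKCi had 0 counts, -4.51 for Lce3f, -2.00 for Lce3c, -6.07 for Sprr2d, -1.03 for Sprr2a2, -0.86 for Sprr1a and -0.65 for Sprr1b. Sprr3 was at -3.20, a call lost without wild-type atRA+PKCi replicate 2, Rxra cKO FBS replicate 1 or Rxra cKO atRA+PKCi replicate 2. Sprr2a1, at 0.83, was the 1 member with a more positive effect in wild-type, and its reads are not separable from those of Sprr2a2. No explanation was tested.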

How the results depend on the processing

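Of 304 values from alternatives to the 45 answers to comparisons, 274 stayed within the spread or within 1.5 times the count, 30 did not. No called value changed sign, though with hashtags called by share of counts the order of Sprr2 in mouse 1 turned, with Rspo above B-27. Members higher in Rxra cKO in FBS numbered 3 with limma at either pseudocount and 1 under stricter calls, against 5, and 1 to 6 when a library was left out. Members with a positive interaction numbered 0 under stricter calls. With a library left out, members lower in Rxra cKO in atRA+PKCi ranged from 0 to 1, and cultured members lower in BMP2/4 than in B-27 from 12 to 20, against 13 of 15 tested. The highest, 20 of 22 to 24 tested, came without any 1 Rspo or Rspo+BMP2/4+RARi sum. The replicate block gave 32 members higher in Rxra cKO in atRA+PKCi, gaining Lce3a, Lce3b, Lce3c (so that 6 of 6 Lce3 genes were called) and Sprr2f, and 25 lower in FBS, gaining Lce1k, and changed no other count of members. Among named genes outside the members it added the fall of Ivl in wild-type.

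In CPM of UMIs, averaged over the mice, the stricter cell filter in skin gave 0.903 for Sprr2 in the suprabasal epidermis-like class, and Sprr1 of 11.7 (against 45.3) in basal epidermis-like and 1.28 in fibroblast-like cells. The basal epidermis-like share of member UMIs became 3.95% under that filter and 1.25% with members kept for clustering. A mitochondrial limit of 20% in cultured cells gave Lce3 317, Sprr1 429 and Sprr2 224 in BMP2/4, Sprr2 257 in Rspo and 159.9 in Rspo+BMP2/4, and Lce3 255 and Sprr1 613 in Rspo+BMP2/4+RARi. Hashtags called by share of counts gave Lce3 379.9, Sprr1 959.6 and Sprr2 628 in Rspo, Sprr2 159.8 in Rspo+BMP2/4, and Lce1 38.8 and Lce3 265 in Rspo+BMP2/4+RARi. The cause of these shifts was not tested. Few cells per sum (5 to 113) and 2 mice limit the single cell values, and genes at 0 counts give bounds.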
